A study of Homo sapiens with 4 samples.

Results

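The genes described here are 31 genes of cholesterol synthesis, its control by SREBP2, and the uptake, transport and storage of sterols, taken by symbol from a list whose rule uses no measured value but which was drawn up with earlier results of these data known. All 31 have a row in the count table of 28278 genes, and all 31 were among the 17271 genes abundant enough to be tested. RNA sequencing had been carried out on A549 cells, a human lung adenocarcinoma line. A stable line infected with a lentivirus carrying a CBX7 expression construct (OE_CBX7, 2 libraries) is set against a stable line infected with a lentivirus carrying a control construct (Control, genotype given as WT, 2 libraries). Both lines grew in the same serum-containing medium, and the labels name neither the construct's promoter nor whether a line is 1 clone. CBX7 is a chromobox protein of a Polycomb repressive complex, which binds chromatin and holds genes silent.

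Cholesterol is built from acetyl-CoA through mevalonate, farnesyl diphosphate, squalene and lanosterol, and a chain of enzymes in the endoplasmic reticulum converts lanosterol into cholesterol. When sterols in that membrane run low, SCAP carries the transcription factor precursor SREBP2, the product of SREBF2, to the Golgi, where it is cut and released to induce the enzymes of the pathway. When sterols are plentiful, INSIG1 and INSIG2 hold SCAP back, and LXR receptors, bound by oxysterols, turn on genes that limit uptake.

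Most of the enzymes were higher with CBX7 overexpression, unevenly along the chain. Of the 19 enzymes, 11 rose, none fell and 8 did not pass the test. TM7SF2 and LSS, which make and process early sterols, rose the most, 2.29-fold and 2.03-fold. The factor SREBF2 rose 1.44-fold together with its escort SCAP and its retention factor INSIG1, while STARD4, a carrier that moves cholesterol between membranes, fell 1.99-fold. Across all 31 genes, 14 rose (45.2%), 1 fell (3.23%) and 16 did not pass. Among all tested genes 10.5% rose and 13.9% fell. The median log2 fold change was 0.32 over the 31 genes and 0.50 over the 19 enzymes, against -0.00015 over all tested genes. A gene is said to rise or fall where edgeR's quasi-likelihood test gave an adjusted p under 0.05 over all tested genes. Levels are CPM, counts divided by TMM-scaled library size, and fold changes are OE_CBX7 over Control.

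Some of these promoters are printed first, because SREBP2 is known to act at promoters together with the factor NF-Y, which binds the letters CCAAT. RefSeq windows (GRCh38.p14) from 250 bases before to 50 bases after a transcription start were matched by symbol to 28 of the 31 genes, in 40 windows. CCAAT was searched on both strands, so that ATTGG counts as a match. It was present in at least 1 window of 22 of the 28 genes (78.6%), against 39.7% of the 27305 genes with a window, and in 24 of the 40 windows (60.0%), against 34.6% of all 35116 windows. The core of a sterol regulatory element, written TCACNCCAC and searched on both strands, was found in the window of SREBF2 and of no other of the 28 genes. That is 1 of the 40 windows (2.5%), against 1.13% of all windows. Among the 12 genes with a window that rose, 10 held CCAAT, and so did 12 of the other 16. A match describes these letters only, and a window without them says nothing about the factor.

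The windows shown are those of the control gene with the sterol element, of TM7SF2 and LSS, the enzymes that rose most, of MVK, an enzyme that rose and held 5 CCAAT matches, of HMGCS1, an enzyme that did not rise, and of STARD4, which fell. Capitals mark CCAAT or ATTGG and, in SREBF2, also the sterol element. Each runs 5′ to 3′ on the strand of its gene.
SREBF2, chr22:41832855-41833154, plus strand: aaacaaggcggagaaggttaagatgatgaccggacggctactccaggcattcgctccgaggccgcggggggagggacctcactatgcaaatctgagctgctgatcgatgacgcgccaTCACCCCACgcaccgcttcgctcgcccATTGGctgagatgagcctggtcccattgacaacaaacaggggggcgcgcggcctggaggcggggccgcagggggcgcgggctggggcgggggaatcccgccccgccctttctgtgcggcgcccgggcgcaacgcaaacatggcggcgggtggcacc
TM7SF2, chr11:65111622-65111921, plus strand: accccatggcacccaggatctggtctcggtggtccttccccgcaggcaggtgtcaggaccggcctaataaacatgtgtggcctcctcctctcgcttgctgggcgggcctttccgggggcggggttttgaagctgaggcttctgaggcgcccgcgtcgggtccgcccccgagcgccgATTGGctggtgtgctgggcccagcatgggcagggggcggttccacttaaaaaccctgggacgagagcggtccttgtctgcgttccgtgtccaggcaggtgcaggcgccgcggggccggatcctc
LSS, chr21:46228725-46229024, minus strand: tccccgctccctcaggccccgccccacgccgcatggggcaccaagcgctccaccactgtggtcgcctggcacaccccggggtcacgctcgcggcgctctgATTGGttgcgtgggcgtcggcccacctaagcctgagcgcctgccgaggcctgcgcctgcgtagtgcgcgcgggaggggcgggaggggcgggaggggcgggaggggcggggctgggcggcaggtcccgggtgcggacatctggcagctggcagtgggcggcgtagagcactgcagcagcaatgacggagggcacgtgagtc
MVK, chr12:109573544-109573843, plus strand: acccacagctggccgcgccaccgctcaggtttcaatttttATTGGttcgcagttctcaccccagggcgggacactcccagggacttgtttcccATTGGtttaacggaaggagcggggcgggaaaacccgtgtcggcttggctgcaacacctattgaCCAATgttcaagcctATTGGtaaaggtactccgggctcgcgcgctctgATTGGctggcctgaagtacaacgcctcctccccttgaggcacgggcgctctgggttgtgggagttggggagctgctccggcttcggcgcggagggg
HMGCS1, chr5:43313363-43313662, minus strand: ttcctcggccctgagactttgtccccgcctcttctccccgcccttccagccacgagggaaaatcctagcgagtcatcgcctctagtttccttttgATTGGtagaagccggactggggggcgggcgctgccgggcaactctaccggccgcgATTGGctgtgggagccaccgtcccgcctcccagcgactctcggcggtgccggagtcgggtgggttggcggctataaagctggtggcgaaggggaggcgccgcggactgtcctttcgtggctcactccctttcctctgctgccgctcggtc
STARD4, chr5:111512486-111512785, minus strand: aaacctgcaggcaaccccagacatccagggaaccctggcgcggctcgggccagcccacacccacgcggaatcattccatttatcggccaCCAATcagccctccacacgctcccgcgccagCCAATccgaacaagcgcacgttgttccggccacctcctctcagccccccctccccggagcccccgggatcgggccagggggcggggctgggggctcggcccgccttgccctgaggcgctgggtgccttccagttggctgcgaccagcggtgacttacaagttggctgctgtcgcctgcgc

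In the SREBF2 window the sterol element began at position -133 from the transcription start and an ATTGG at -106. The MVK window held 5 matches, at -210, -157, -94, -79 and -46, as many as the window of NSDHL, an enzyme that did not pass. The windows of TM7SF2 and LSS held 1 match each, at -74 and -150, whereas that of STARD4 and the printed window of HMGCS1 held 2 each. HMGCS1 has a further window, chr5:43313132-43313431, that is not printed and held no match. The number of matches in the printed windows therefore did not order these genes by their fold change.

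Total counts were between 69877585 and 90765502 per library, and a floor of 3 counts per library was 0.0320 to 0.0440 CPM. Of the 31 genes, 30 stood far above that floor in every library; NPC1L1 was the exception. CBX7 itself had 19 and 17.2 CPM in the OE_CBX7 libraries and 8.0 and 8.74 CPM in the Control libraries (log2 fold change 1.11, adjusted p = 0.000141). The counts do not separate the construct from the endogenous gene. Of 9 lung epithelial and carcinoma markers, the keratins were abundant, with KRT8 at 6308 to 6991 CPM over the libraries and KRT7 lower in OE_CBX7 (log2 fold change -0.29, adjusted p = 0.0342). NKX2-1 (0.302 to 1.27 CPM, higher in OE_CBX7, adjusted p = 0.0489), EPCAM (0.65 to 1.61 CPM) and SFTPB and SFTPC (both at most 0.117 CPM) were low, so the surfactant genes of alveolar cells were at or near the floor. Summed levels of 4 leukocyte markers were 3.22 and 2.58 CPM in OE_CBX7 and 1.36 and 1.36 CPM in Control, nearly all from CD14 (1 of 4 called, higher), with CD3E at 0 in every library. Sums of 3 endothelial markers were 2.86 and 3.58 CPM in OE_CBX7 and 1.56 and 0.836 CPM in Control, mostly from CDH5 (1 of 3 called, higher), and those of 5 fibroblast markers were 7.46 and 6.89 CPM in OE_CBX7 and 4.32 and 7.18 CPM in Control, with none called at an adjusted p under 0.05. The part of these low levels in the results was not tested. These are bulk samples, in which fewer cells of a type and less RNA per cell cannot be told apart. Nothing in the labels says that libraries of a group came from separate cultures, so the tests reflect library-to-library spread, which may be technical.

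**Figure D1:**
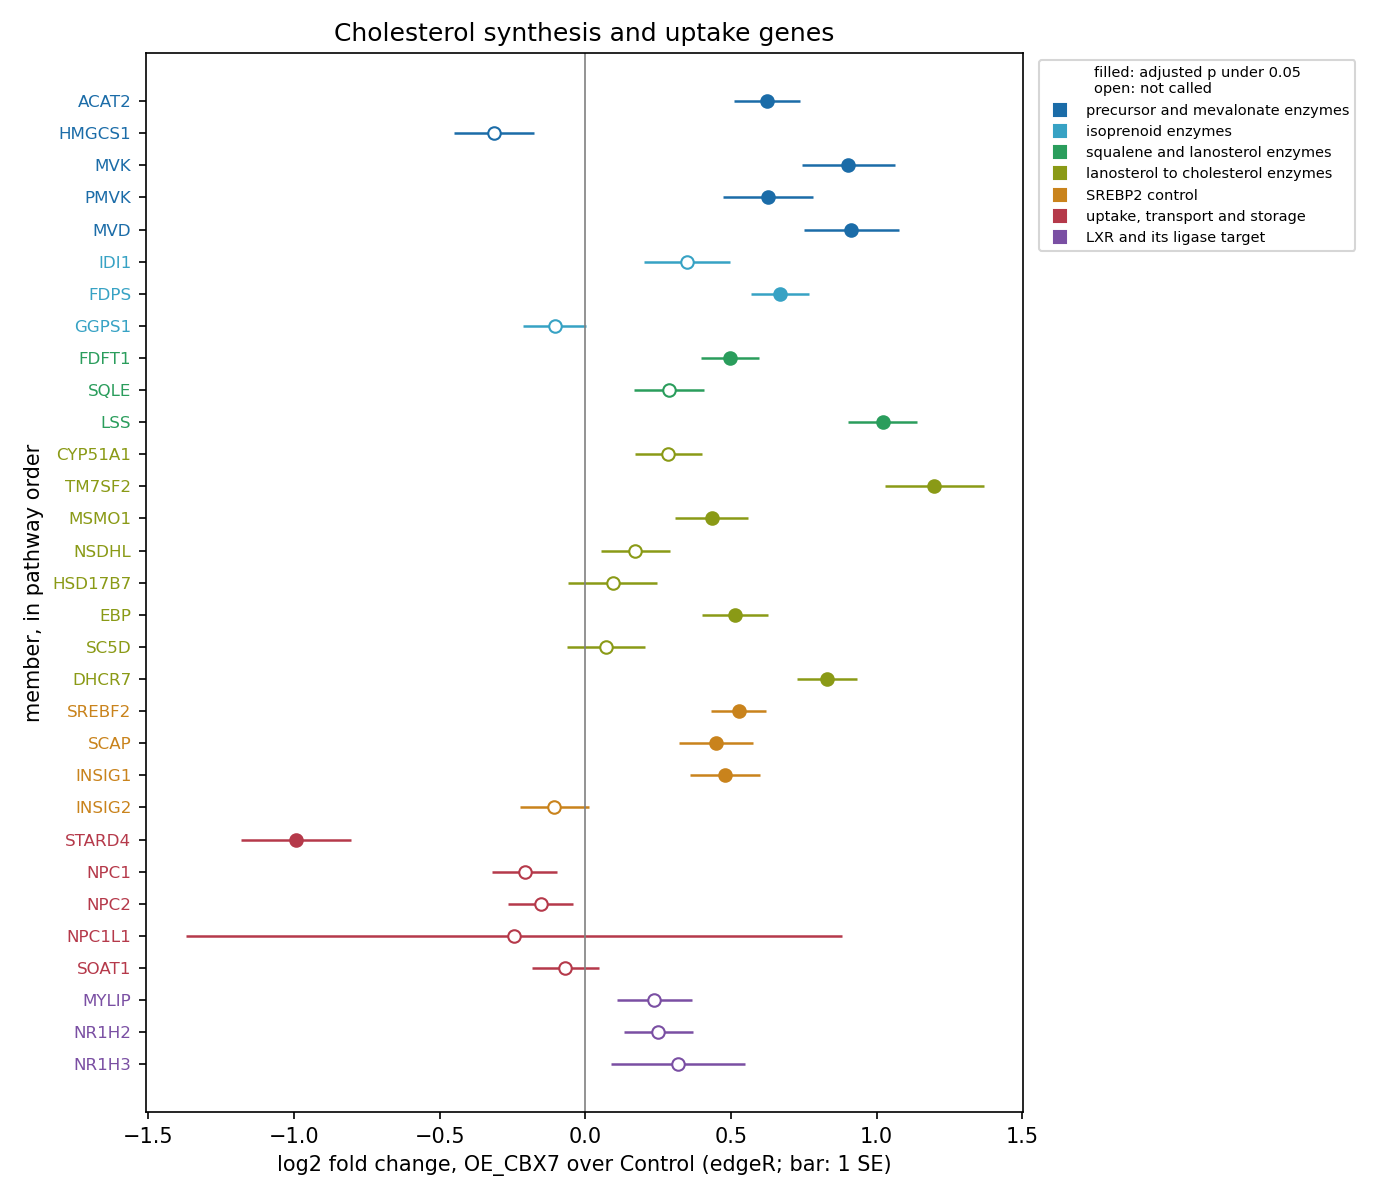
Log2 fold change of OE_CBX7 over Control for the 31 genes in pathway order, from the first enzyme at the top to the LXR genes at the bottom; bars are 1 SE of the edgeR fit, and filled points passed an adjusted p under 0.05. Filled points lie to the right of 0 in 11 of 19 enzymes, and STARD4 is the filled point to the left.

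The first enzymes turn acetyl-CoA into the activated isoprenoid building block. ACAT2, the thiolase that joins acetyl-CoA units, had 78.8 and 85.4 CPM in the OE_CBX7 libraries and 56.8 and 49.8 CPM in the Control libraries. MVK, the kinase that phosphorylates mevalonate, had 29.8 and 31.4 CPM with overexpression and 13.6 and 19.2 CPM in Control. PMVK, which adds the next phosphate, had 35.6 and 43.9 CPM with overexpression and 22.0 and 29.4 CPM in Control. In these genes both OE_CBX7 libraries were above both Control libraries, and the Control libraries were further apart as a ratio in MVK (log2 difference 0.51) and PMVK (0.42) than in ACAT2 (-0.19). MVD, the decarboxylase that ends this stage, had 35.1 and 36.4 CPM in OE_CBX7 and 22.7 and 15.3 CPM in Control, also without overlap. ACAT2, MVK, PMVK and MVD rose by log2 fold changes of 0.62 (SE 0.114), 0.90 (SE 0.16), 0.63 (SE 0.153) and 0.91 (SE 0.163), with adjusted p of 0.00127, 0.000996, 0.00897 and 0.00118. PMVK did not pass without Control library 1 (adjusted p = 0.0748) or OE_CBX7 library 2 (adjusted p = 0.0596). ACAT2 shares exon bases on the opposite strand with SOD2 (26.5% of its exon length in GENCODE release 29) and TCP1 (9.23%), and MVK with MMAB (4.72%). Whether strand was used in counting is not given in the sources used here, so part of the counts of such genes may belong to their partners.

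HMGCS1, the synthase between ACAT2 and the mevalonate steps, did not rise with its neighbours. It had 195 and 201 CPM in the OE_CBX7 libraries and 288 and 204 CPM in the Control libraries. Control library 2 lay just above the overexpression libraries, and Control library 1 stood apart on the high side. The log2 fold change was -0.31 (SE 0.136, adjusted p = 0.121). It was -0.53 without Control library 2 and -0.04 without Control library 1.

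**Figure D2:**
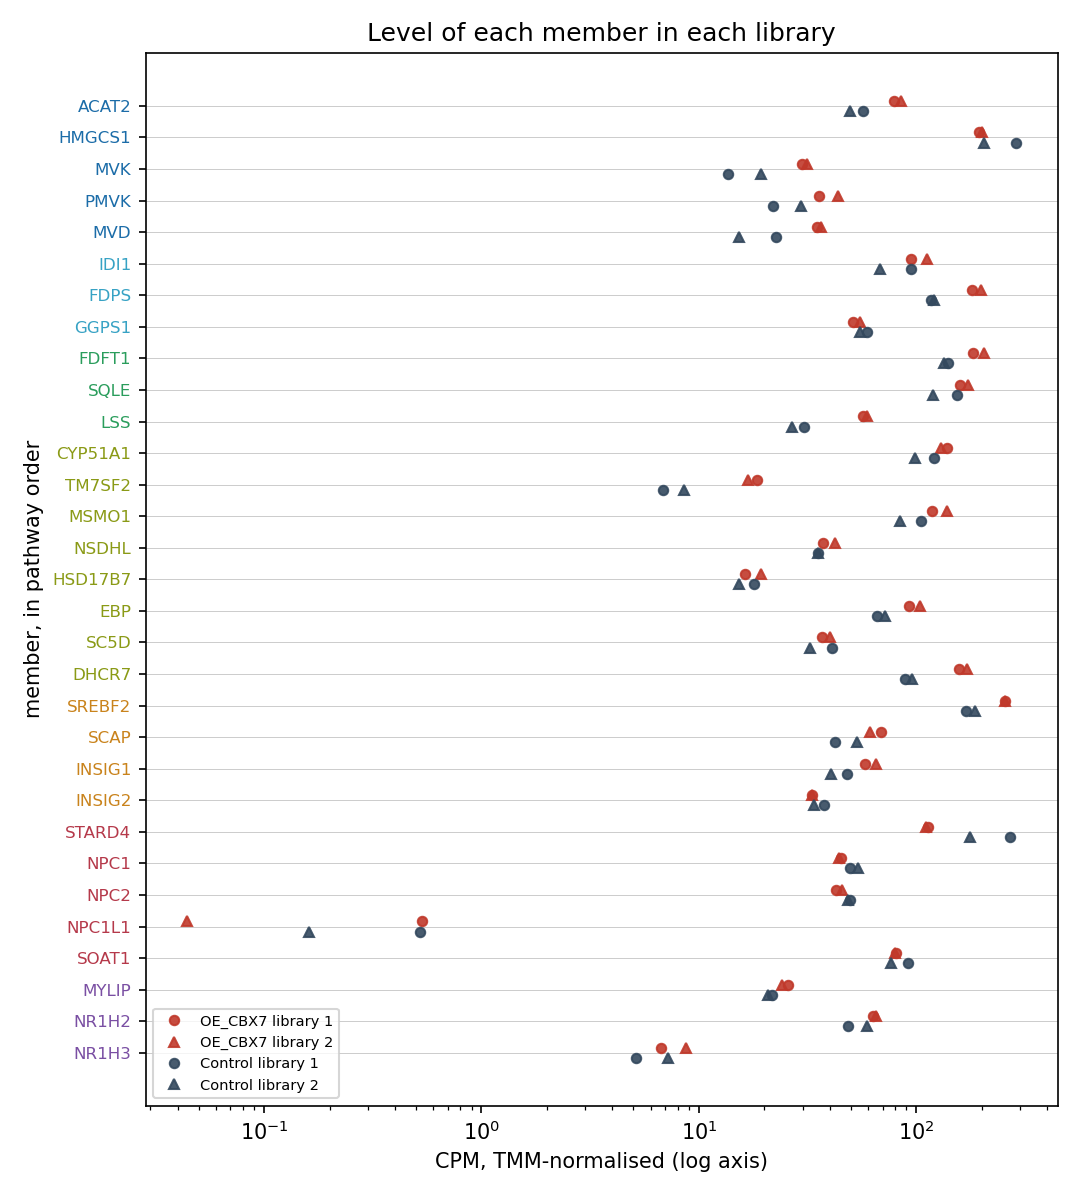
CPM of each gene in each of the 4 libraries on a log axis, OE_CBX7 drawn above Control for every gene and libraries 1 and 2 as circles and triangles. The pairs separate for LSS, TM7SF2, DHCR7 and STARD4, and the Control libraries lie apart for HMGCS1, MVD and STARD4.

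In the isoprenoid stage, farnesyl diphosphate synthase rose and its neighbours did not pass. FDPS, which condenses the building blocks into farnesyl diphosphate, had 180.2 and 198 CPM in the OE_CBX7 libraries against 117 and 121 CPM in Control (log2 fold change 0.67, SE 0.0995, adjusted p = 0.000236). The difference was far larger than the spread within either group. IDI1, the isomerase that feeds FDPS, had 94.9 and 112 CPM in OE_CBX7 and 94.4 and 68.1 CPM in Control (log2 fold change 0.35, adjusted p = 0.111). Control library 1 nearly reached the overexpression libraries in this gene, and without it the log2 fold change of IDI1 was 0.61. It was 0.47 without OE_CBX7 library 1, 0.14 without Control library 2 and 0.23 without OE_CBX7 library 2. GGPS1 makes the longer geranylgeranyl diphosphate used to anchor proteins in membranes, on a branch that leaves the sterol route. It had 51.1 and 54.9 CPM in OE_CBX7 and 59.1 and 54.9 CPM in Control (log2 fold change -0.11, adjusted p = 0.547), and 37.3% of its exon bases are shared with TBCE on the same strand, so its own level is uncertain.

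The step from farnesyl diphosphate to lanosterol holds the enzyme with the smallest p of the 31 genes. LSS, which folds the oxidised squalene into lanosterol, had 56.7 and 59.3 CPM in the OE_CBX7 libraries and 30.4 and 26.8 CPM in the Control libraries. All values within a group lay close together, and the log2 fold change was 1.02 (SE 0.118, adjusted p = 2.46e-05). FDFT1, squalene synthase, the first step committed to sterols, had 182 and 205 CPM in OE_CBX7 and 140.0 and 134 CPM in Control (log2 fold change 0.50, SE 0.101, adjusted p = 0.00261). SQLE, the oxygenase between these enzymes, had 159 and 174 CPM in OE_CBX7 and 153 and 119 CPM in Control. Its groups did not overlap, but the gap was small beside the distance between the Control libraries (log2 fold change 0.29, SE 0.121, adjusted p = 0.103). The log2 fold change of SQLE was 0.48 without Control library 1 and 0.12 without Control library 2. SQLE passed with library totals in place of TMM (log2 fold change 0.35, adjusted p = 0.0456).

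From lanosterol to cholesterol, 4 of 8 enzymes rose and 4 did not pass. TM7SF2, a reductase that acts soon after lanosterol, had 18.5 and 16.8 CPM in the OE_CBX7 libraries and 6.83 and 8.58 CPM in the Control libraries. This was the largest fold change of the 31 genes (log2 fold change 1.2, SE 0.169, adjusted p = 0.00015). DHCR7, the reductase of a last step, had 157 and 171 CPM in OE_CBX7 and 89.1 and 95.4 CPM in Control (log2 fold change 0.83, SE 0.103, adjusted p = 4.79e-05). In both genes the OE_CBX7 libraries were close to each other and far from Control. EBP, a sterol isomerase, had 92.2 and 104 CPM with overexpression and 65.7 and 71.9 CPM in Control (log2 fold change 0.51, SE 0.113, adjusted p = 0.00456). MSMO1, which removes methyl groups, had 118 and 138 CPM with overexpression and 106 and 84.2 CPM in Control (log2 fold change 0.43, SE 0.126, adjusted p = 0.0225). The MSMO1 groups were separated by less than either group's own spread. MSMO1 did not pass without Control library 2 (log2 fold change 0.29, adjusted p = 0.131) or OE_CBX7 library 2 (0.32, adjusted p = 0.191), nor EBP without OE_CBX7 library 2 (adjusted p = 0.0726).

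The other enzymes of this stage had smaller differences. CYP51A1, the demethylase that acts on lanosterol first, had 138 and 129.9 CPM in the OE_CBX7 libraries against 121 and 98.8 CPM in Control (log2 fold change 0.28, adjusted p = 0.0899). Its log2 fold change was 0.44 without Control library 1 and 0.15 without Control library 2. CYP51A1 passed with library totals (0.35, adjusted p = 0.0398). NSDHL, a dehydrogenase of the demethylation complex, had 37.4 and 42.2 CPM in OE_CBX7 and 35.2 and 35.5 CPM in Control (log2 fold change 0.17, adjusted p = 0.338). Its groups did not overlap, unlike those of the remaining enzymes. HSD17B7, the ketoreductase of the same complex, had 16.2 and 19.3 CPM in OE_CBX7 and 18.0 and 15.3 CPM in Control (log2 fold change 0.09, adjusted p = 0.725). SC5D, a desaturase, had 36.8 and 40.3 CPM in OE_CBX7 and 41.0 and 32.3 CPM in Control (log2 fold change 0.07, adjusted p = 0.767). HSD17B7 has a pseudogene in the table, HSD17B7P2, with at most 634 counts in a library, and reads shared by the pair could not be assigned here.

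In all, both OE_CBX7 libraries were above both Control libraries in 15 of the 19 enzymes and in 20 of the 31 genes, and below both in 2 and in 6. Among all tested genes, 30.8% had both OE_CBX7 libraries above both Control libraries and 31.9% had both below. The summed level of the 19 enzymes was 1712 and 1863 CPM in the OE_CBX7 libraries and 1480 and 1284 CPM in the Control libraries. Because abundant genes weigh most in such a sum, HMGCS1 and SQLE count for more in it than LSS and TM7SF2.

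The genes that control SREBP2 rose in part. SREBF2 had 257 and 256 CPM in the OE_CBX7 libraries and 169 and 187 CPM in the Control libraries (log2 fold change 0.53, SE 0.0942, adjusted p = 0.00107). The overexpression libraries were almost equal, and both were well above Control. SCAP, which escorts the precursor and senses cholesterol, had 68.9 and 61.6 CPM with overexpression and 42.3 and 53.3 CPM in Control (log2 fold change 0.45, SE 0.128, adjusted p = 0.0200). INSIG1, itself a gene that SREBP2 induces, had 57.9 and 65.5 CPM with overexpression and 47.9 and 40.6 CPM in Control (log2 fold change 0.48, SE 0.121, adjusted p = 0.0106). INSIG2, the second retention factor, had 33.1 and 33.3 CPM with overexpression and 37.6 and 33.9 CPM in Control (log2 fold change -0.11, adjusted p = 0.578). Whether INSIG1 and INSIG2 differ in their change was not tested. SCAP did not pass without Control library 1 (log2 fold change 0.29, adjusted p = 0.102) or OE_CBX7 library 1 (0.37, adjusted p = 0.153), nor INSIG1 without Control library 2 (0.37, adjusted p = 0.0663) or OE_CBX7 library 2 (0.40, adjusted p = 0.124). These are transcript levels, and the cleavage that activates SREBP2 is not measured by them.

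Of the genes of uptake, transport and storage, STARD4 fell and the other 4 did not pass. STARD4 had 114 and 111 CPM in the OE_CBX7 libraries and 271 and 177 CPM in the Control libraries. The overexpression libraries were nearly equal, Control library 1 was far above Control library 2, and both were above the overexpression libraries. The log2 fold change was -0.99 (SE 0.189, adjusted p = 0.00914). It was -0.65 without Control library 1 and -1.26 without Control library 2. In those fits the distance between the Control libraries no longer entered the spread, so only the effect size is given. NPC1 and NPC2, which pass cholesterol out of the lysosome hand to hand, were slightly lower in both OE_CBX7 libraries. NPC1 had 45.1 and 44.2 CPM in OE_CBX7 and 49.5 and 53.8 CPM in Control (log2 fold change -0.21, adjusted p = 0.20). NPC2 had 42.8 and 45.4 CPM in OE_CBX7 and 49.3 and 48.8 CPM in Control (log2 fold change -0.15, adjusted p = 0.356). For neither gene did the separation pass the test. SOAT1, which esterifies cholesterol for storage, had 80.3 and 80.0 CPM in OE_CBX7 and 91.4 and 76.7 CPM in Control, with overlap (log2 fold change -0.07, adjusted p = 0.735). NPC1L1, the intestinal cholesterol importer, had 50 and 4 counts in OE_CBX7 and 45 and 11 counts in Control, and the libraries within each group lay far apart (SE of the log2 fold change 1.13, adjusted p = 0.911).

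The LXR genes did not pass. NR1H2, the LXR found in most tissues, had 63.4 and 65.1 CPM in the OE_CBX7 libraries and 48.8 and 59.3 CPM in the Control libraries (log2 fold change 0.25, adjusted p = 0.149). Without Control library 2 the log2 fold change of NR1H2 was 0.41. NR1H3, the LXR of liver and macrophages, was far less abundant, at 6.69 and 8.73 CPM in OE_CBX7 and 5.14 and 7.24 CPM in Control (log2 fold change 0.32, adjusted p = 0.360). MYLIP, a ubiquitin ligase that LXR induces and that removes lipoprotein receptors from the cell surface, had 25.8 and 24.2 CPM in OE_CBX7 and 21.6 and 20.8 CPM in Control (log2 fold change 0.24, adjusted p = 0.206). In NR1H2 and MYLIP the groups did not overlap, whereas in NR1H3 they did.

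**Figure D3:**
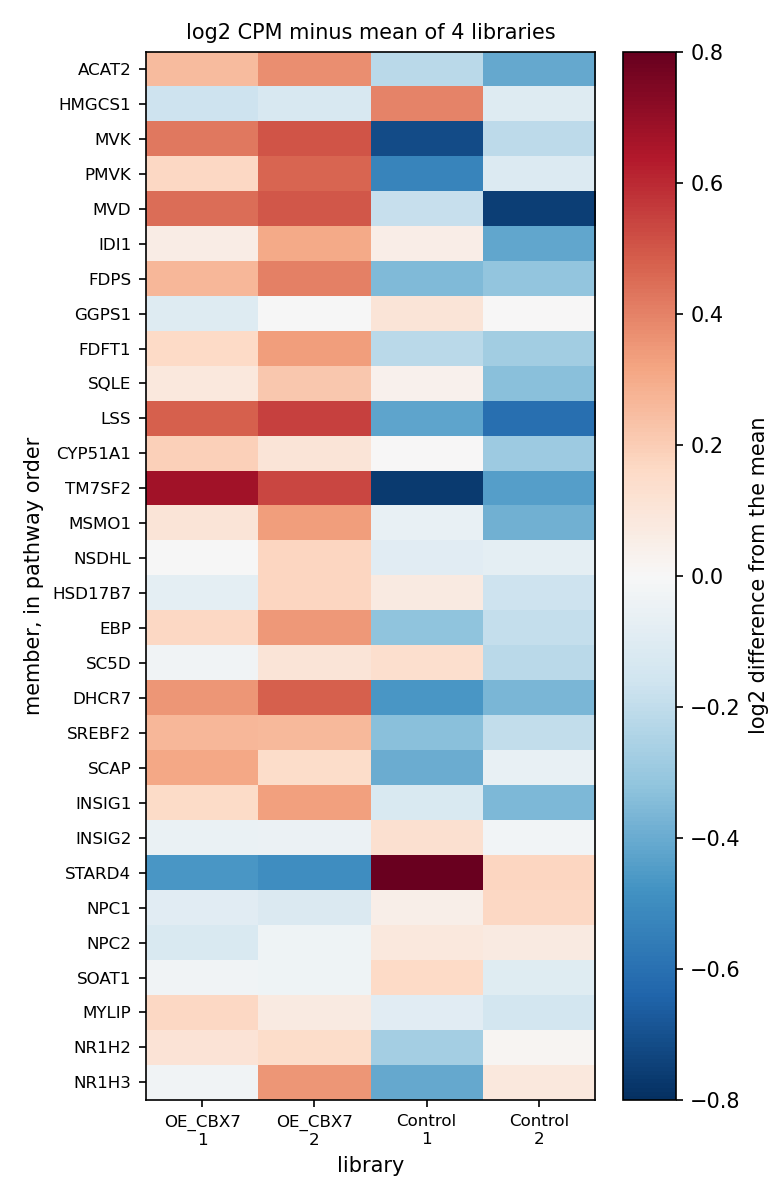
Log2 CPM of each gene minus its mean over the 4 libraries, with OE_CBX7 libraries in the left columns and Control libraries in the right columns; NPC1L1 is left out because of its few counts. Red is above and blue below the mean. STARD4 has the opposite colours to LSS, TM7SF2 and DHCR7, and Control libraries 1 and 2 differ in shade for MVD, MVK, HMGCS1 and STARD4.

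The Control libraries differed from each other in some of these genes, and not in 1 direction. Control library 2 was below Control library 1 in 19 of the 31 genes, against 8672 of 17271 tested genes. The log2 difference of Control library 2 from Control library 1 was -0.62 in STARD4, -0.57 in MVD, -0.49 in HMGCS1 and -0.47 in IDI1. In MVK, PMVK, NR1H3 and SCAP it ran the other way, at 0.51, 0.42, 0.49 and 0.34. OE_CBX7 library 2 was below OE_CBX7 library 1 in 9 of the 31 genes and in 2 of the 19 enzymes, against 8566 of 17271 tested genes. The log2 difference of OE_CBX7 library 2 from library 1 was 0.38 in NR1H3, 0.30 in PMVK, 0.25 in HSD17B7 and 0.24 in IDI1, and -0.03, 0.05 and 0.04 in STARD4, MVD and HMGCS1.

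Levels of different genes were set beside each other per kilobase of merged exons in GENCODE release 29, a scale that depends on an annotation that may not be the one used for counting. By group mean, FDPS (50.9 CPM per kilobase), MSMO1 (44.3) and HMGCS1 (42.1) led in OE_CBX7. In Control the order was HMGCS1 (52.4), STARD4 (39.4), MSMO1 (32.8) and FDPS (32.0). STARD4 thus stood at place 13 of 31 in OE_CBX7, at 19.8 CPM per kilobase, and at place 2 in Control. TM7SF2 and MVK, among the genes that rose most, were near the bottom in both groups, at 5.18 and 4.73 CPM per kilobase in OE_CBX7 and 2.26 and 2.53 in Control. No test was made between genes.

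**Figure D4:**
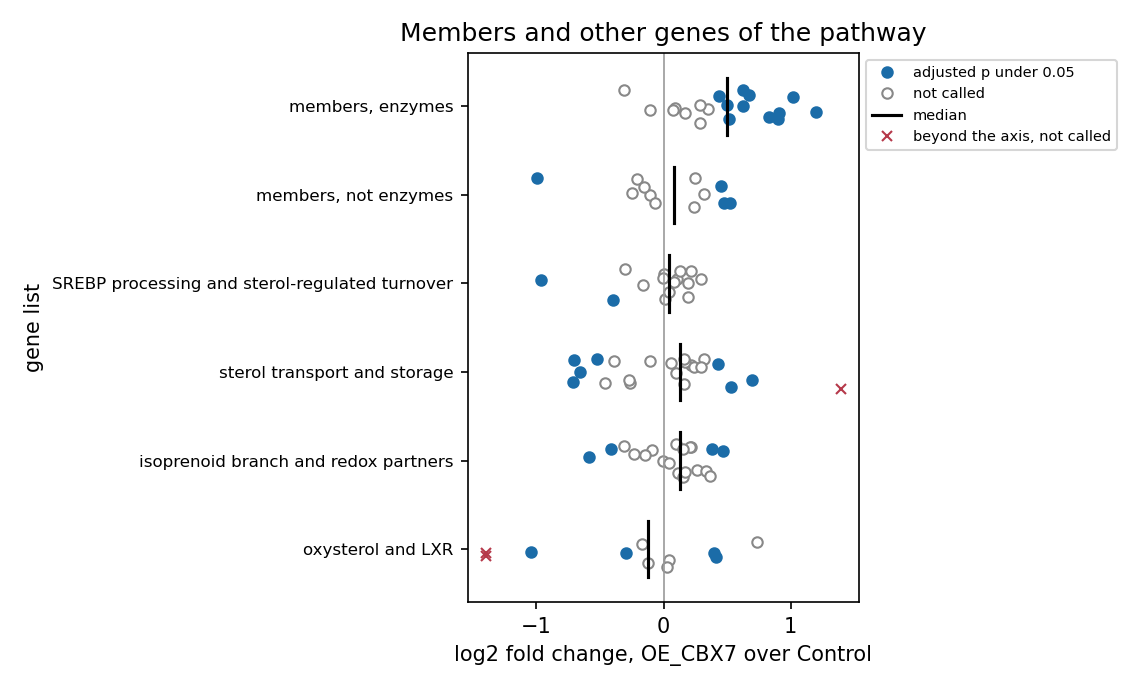
Log2 fold change of OE_CBX7 over Control for the enzymes, the other listed genes and the other pathway lists described in the text; filled points passed an adjusted p under 0.05, black bars are medians, vertical position within a row is random, and crosses are uncalled genes drawn at the axis end. The enzyme median is 0.50 and the medians of the other rows lie between -0.12 and 0.13.

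Beyond the 31 genes, 72 other genes of sterol biology stood in 4 lists, of which 68 were tested. Of these, 7 rose (10.3%), 10 fell (14.7%) and 51 did not pass, with a median log2 fold change of 0.07. These shares are near those of all tested genes. In the list for SREBP processing and sterol-regulated turnover, 2 of 15 fell (13.3%) and none rose at an adjusted p under 0.05. FBXW7, a ubiquitin ligase subunit that targets nuclear SREBPs among many proteins, had 13.2 and 14.5 CPM in the OE_CBX7 libraries and 31 and 23.2 CPM in Control (log2 fold change -0.97, adjusted p = 0.000509). RNF145, an LXR-induced ligase that acts on SCAP, had 164 and 151 CPM with overexpression and 215 and 199 CPM in Control (log2 fold change -0.40, adjusted p = 0.00939). RNF145 did not pass without OE_CBX7 library 2 (adjusted p = 0.126). The proteases that cut SREBPs were not called, with MBTPS1 at a log2 fold change of 0.20 (adjusted p = 0.195) and MBTPS2 at 0.11 (adjusted p = 0.585).

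Genes of sterol transport and storage moved both ways, with 3 of 22 higher (13.6%) and 4 lower (18.2%). Among all tested genes these shares were 10.5% and 13.9%. SCP2, a sterol carrier protein of peroxisomes and cytosol, had 113 and 124 CPM in the OE_CBX7 libraries and 68.9 and 77.6 CPM in Control (log2 fold change 0.70, adjusted p = 0.000426). LIPA, the lysosomal lipase that frees cholesterol from its esters, had 136 and 141 CPM with overexpression and 232 and 206 CPM in Control (log2 fold change -0.66, adjusted p = 0.000262). LIMA1, an actin-binding protein with a role in intestinal cholesterol uptake, was lower with a log2 fold change of -0.70 (adjusted p = 0.000435), and VLDLR, a lipoprotein receptor, with one of -0.71 (adjusted p = 0.00178). In each of these genes the groups did not overlap. Of the oxysterol-binding protein family, OSBPL5 rose (log2 fold change 0.53, adjusted p = 0.0431) and OSBPL6 fell (-0.52, adjusted p = 0.0216). The other family members in the list, OSBP, OSBPL2, OSBPL8, OSBPL9 and OSBPL11, were not called. OSBPL5 and OSBPL6 were picked out after their values were seen, and their calls were not followed through the alternative analyses.

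Isoprenoid-using enzymes and redox partners gave 2 higher (10%) and 2 lower (10%) of 20 tested, near the shares of all tested genes. The protein prenyltransferase subunits FNTA and RABGGTB fell, with log2 fold changes of -0.59 and -0.41 (adjusted p of 0.00196 and 0.0141). Other subunits in that list, FNTB (log2 fold change 0.15, adjusted p = 0.419), RABGGTA (-0.31, adjusted p = 0.121) and PGGT1B (-0.23, adjusted p = 0.189), were not called. The redox partners CYB5R3 and CYB5B rose, with log2 fold changes of 0.47 and 0.38 (adjusted p of 0.00471 and 0.0115). CYB5A, in the same list, was not called (log2 fold change 0.34, adjusted p = 0.085). In the oxysterol and LXR list, 2 of 11 tested genes rose (18.2%) and 2 fell (18.2%). RXRA, the partner receptor of LXR, had 84.0 and 76.5 CPM with overexpression and 57.7 and 64.0 CPM in Control (log2 fold change 0.40, adjusted p = 0.0188). LPCAT3, a phospholipid-remodelling enzyme that LXR induces, rose (log2 fold change 0.41, adjusted p = 0.0313). TTC39B, which promotes LXR turnover in mice, fell (log2 fold change -1.05, adjusted p = 0.0021). RXRG was at 0 counts in both Control libraries, with 6 and 0 counts in OE_CBX7, and was too low to test. CH25H and CYP27A1, which make oxysterols, were picked out after their values were seen. CH25H had 0 and 4 counts in OE_CBX7 and 42 and 17 counts in Control (adjusted p = 0.0569), and CYP27A1 had 0 and 5 counts in OE_CBX7 and 27 and 22 counts in Control (adjusted p = 0.0975).

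**Figure D5:**
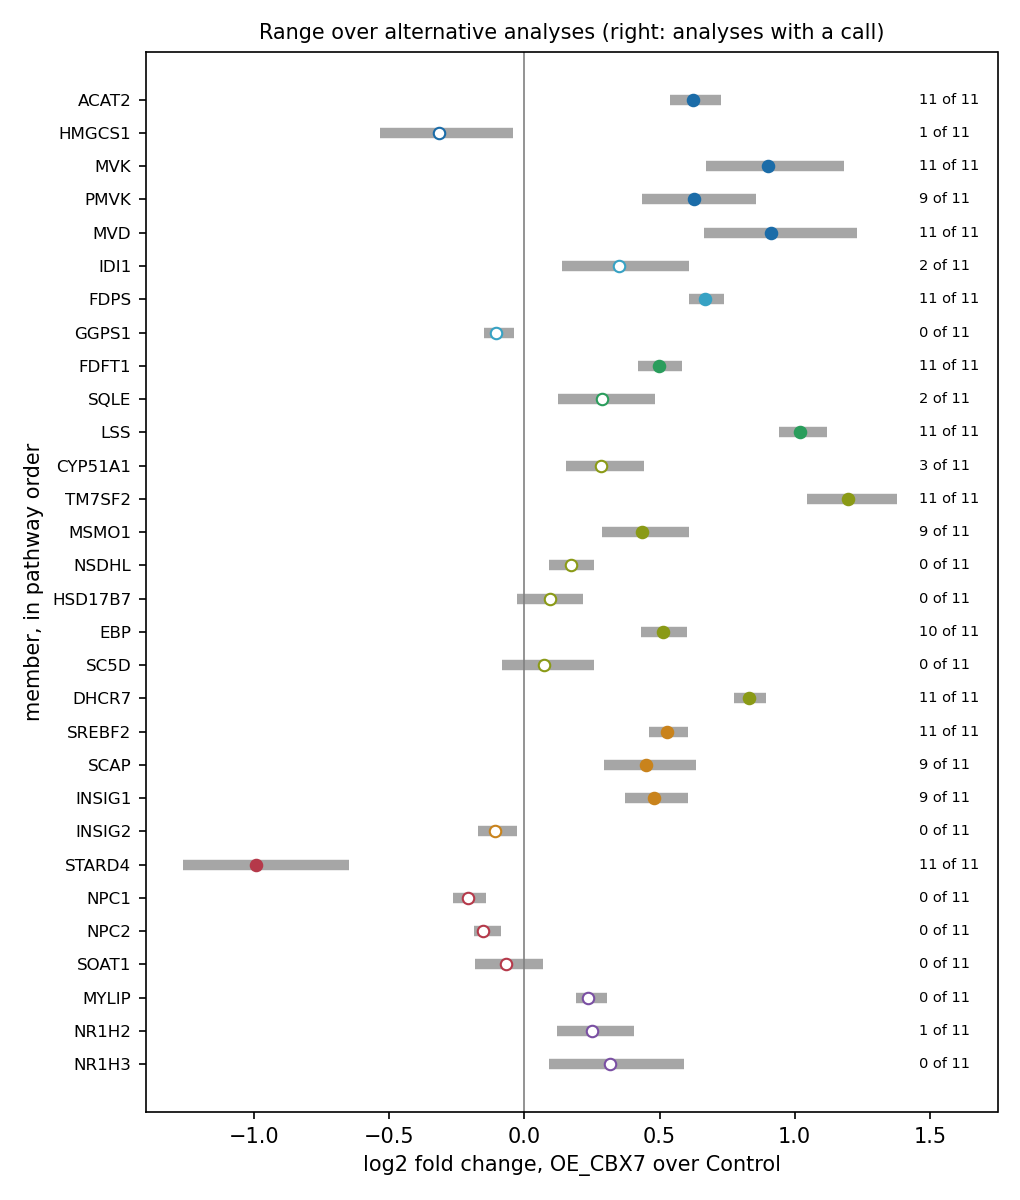
Range of the log2 fold change over the alternative analyses (grey bars) for 30 of the genes, with the main value as a point, filled where called; the right margin gives the number of alternatives with a call. LSS, DHCR7 and FDPS have narrow bars and 11 of 11 calls. The bars of MVD, MVK and STARD4, called as often, are wide, as are those of HMGCS1 and IDI1.

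Of the 15 called genes, 10 were called in each of the 11 alternative analyses, namely ACAT2, MVK, MVD, FDPS, FDFT1, LSS, TM7SF2, DHCR7, SREBF2 and STARD4. PMVK, MSMO1, EBP, SCAP and INSIG1 lost their call when some single library was left out, as given above. With a library left out, its group held 1 library, and a gene's own spread came from the other group only. Calls in those analyses therefore say little about stability. Of the 16 genes without a call, 11 had none in any alternative, and HMGCS1, IDI1, SQLE, CYP51A1 and NR1H2 gained one in at least 1. With library totals in place of TMM, a scaling that moves the median of all genes by 0.066, 16 of the 31 genes rose and 1 fell, and the share of higher genes among all called genes was 55.0% in place of 43.0%.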

How the data were processed

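The submitters' processing notes list StringTie 2.2.1, HISAT2 2.2.1, the build hg38 and DESeq2, without saying what each was used for. The authors deposited 1 table of estimated counts (expected counts) per gene and library, already whole numbers, for 28278 symbols. Annotation and strandedness: not given in the sources used here. Columns were matched to samples by title. A chi-square over genes, divided by its degrees of freedom, was 42.7 between the OE_CBX7 libraries and 54.7 between the Control libraries. Libraries of a group thus differed by more than counting error, which does not show that they are independent cultures. All 4 libraries were used. The floor of 3 counts per library covers counting error only.

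Genes passing filterByExpr were scaled by TMM and tested in edgeR 4.0.16 (R 4.3.3; quasi-likelihood, robust, group as the only term), with Benjamini-Hochberg adjustment over 17271 tested genes, and called at an adjusted p under 0.05. SE is the log2 fold change divided by the root of F. Alternatives were other scalings and filters, DESeq2 1.42.0, limma-voom 3.58.1, a replicate block and leaving out each library. The tests were planned for raw counts; the deposited estimates were all whole, so no rounding was needed. They were checked on simulated counts. The members, lists and tests were chosen with earlier results of these data known. Named genes are all 31 members, CBX7, and in each other list up to 4 called genes by smallest p and any gene at 0 in 1 group; SPRING1 was read under its older symbol C12orf49. Some genes that the rule names are not reported here. MBTPS1, MBTPS2, OSBPL5, OSBPL6, CH25H and CYP27A1 were added after their values were seen. Exon lengths and overlaps are from GENCODE release 29 (GRCh38), and promoter sequences from RefSeq (GRCh38.p14).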

Additional observations from a re-analysis of the deposited data

How the results depend on the processing

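The 31 genes gave 10 to 15 higher genes with 1 library left out (10 without OE_CBX7 library 2), against 14 with all libraries. They gave 1 or 2 lower genes, 2 without Control library 2, where HMGCS1 passed beside STARD4. The number of genes called higher over the whole table was 1021 to 1790 with 1 library left out, 1021 without OE_CBX7 library 1 and 1121 without OE_CBX7 library 2, against 1809; the number called lower was 1689 to 2134, against 2399. The cause of these shifts was not tested, and in each of these fits 1 group held a single library. With DESeq2 size factors, no low-count filter, a mean count of 50 or more, DESeq2 or limma-voom, the counts for the 31 genes were 14 higher and 1 lower each time. No paired design is stated, and the correlation of same-numbered libraries' deviations was 0.144; with the replicate block 15 of the 31 genes were higher, CYP51A1 in addition (adjusted p = 0.0388), and 1 lower, with 2100 higher and 2503 lower genes in all. In 0 results did a called direction reverse. Of the 14 other named and tested pathway genes, 7 lost their call in at least 1 alternative, among them CYB5B, CYB5R3, LPCAT3, RABGGTB, RNF145 and RXRA. OSBPL5 and OSBPL6 were not among these 14 genes. NPC1L1 could not be fitted at a mean count of 50 or more. RXRG, CH25H and CYP27A1 had at most 42 counts in any library, where counting error is large. NPC1L1 had at most 50, and its libraries within each group lay far apart. How far depth limits each gene was not compared.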
